A study of Mus musculus with 47 samples.

Results

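The genes described here encode nuclear subunits of respiratory complex III, complex IV and ATP synthase, together with cytochrome c. Members were all genes whose platform symbol begins with Uqcr, with Cox followed by a digit from 4 to 8, or with Atp5, plus Cyc1 and Cycs. Each gene was read on 1 probe set, the one with the highest mean over all 47 arrays. The rule uses symbols only and found 43 of the 17097 named genes of the platform, of which 42 were bright enough to be tested. They comprise 8 genes of complex III, cytochrome c (Cycs), 9 common subunits of complex IV, the supercomplex factor Cox7a2l, 7 tissue-restricted isoforms of complex IV and 17 genes of ATP synthase. Cox7b2 was the member below the filter, with a mean of 4.35 against a limit of 5.80 on the log2 scale. Uqcrh and Cox7b, also subunits of these complexes, are not analysed here.

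RNA came from muscle stem cells (satellite cells) of wild type female C57B6/J mice, with 1 Affymetrix array per mouse. Mice received a high fat diet or its matched control diet freely from 8 weeks of age for 7 weeks, and were 15 weeks old at collection. The study followed both diets over the day at zeitgeber times ZT0, ZT4, ZT8, ZT12, ZT16 and ZT20, where ZT0 is by convention lights on. The high-fat groups held 4 mice per time except 3 at ZT16 (23 mice), and the control groups 4 mice per time (24 mice). The mice of both diets at 1 time were collected on 1 day. Each diet contrast therefore lies within a day, whereas time of day and collection day cannot be told apart within a diet. All groups share the strain, sex, age and genotype, and the labels describe no isolation protocol for the cells.

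Complex III passes electrons from ubiquinol to cytochrome c, and complex IV passes them from cytochrome c to oxygen. Both pump protons across the inner mitochondrial membrane, and ATP synthase lets these protons back through its rotating c ring to drive ATP formation in its F1 head. Quiescent satellite cells hold few mitochondria, and mitochondrial mass rises when they are activated. Striated muscle fibres use their own isoforms of some complex IV subunits (Cox6a2, Cox7a1 and Cox8b) in place of the common ones (Cox6a1, Cox7a2 and Cox8a).

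Values are log2 expression as deposited, and every difference is high-fat minus control. Each error written after ± is a limma standard error (SE) except where SD is given. A gene was called when its adjusted p, from limma with Benjamini-Hochberg adjustment over the 10258 genes tested, was under 0.05. Array medians lay between 5.86 and 5.94, correlations between arrays between 0.942 and 0.988, and no arrays were identical. All 8 satellite cell markers read on the array passed the filter, Pax7 among them with a mean of 10.92. Markers of other cell types passed as well: 2 of 6 immune (Cd68 and Cd79a), 4 of 7 fibro-adipogenic (Dpt, Col3a1, Dcn and Col1a1) and all 3 pericyte and smooth muscle markers (Acta2, Myh11 and Rgs5). So did 2 of 5 endothelial, 10 of 13 myofibre, all 3 Schwann cell, 2 of 3 adipocyte and 1 of 2 erythroid markers.

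Averaged over the 6 times, 10 of the 42 members were lower on the high-fat diet and none was higher. That is 23.8% of members, beside 6.80% of all genes called lower and 4.70% called higher. The difference was below 0 for 38 of the 42 members, against 55.1% of all genes, and the median difference was -0.10 for the members and -0.01 for all genes. Unadjusted p was under 0.05 for 28 members, all of them lower (66.7%), and for 26.7% of all genes, of which lower genes made up 15.8% of all genes. The falls of the called genes were small, between -0.10 and -0.28, or 0.932 to 0.821 of the control level. In whole-population RNA, fewer cells of a type and less RNA per cell cannot be told apart. The number called was 17 without control ZT16 replicate 1, and 16 without high-fat ZT8 replicate 1, without the ZT4 mice or with the mean of all probe sets of a gene. It was 7 without the ZT16 mice. Shares of all genes called in these repeats are not given, so the changes cannot be called particular to the members.

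**Figure D1:**
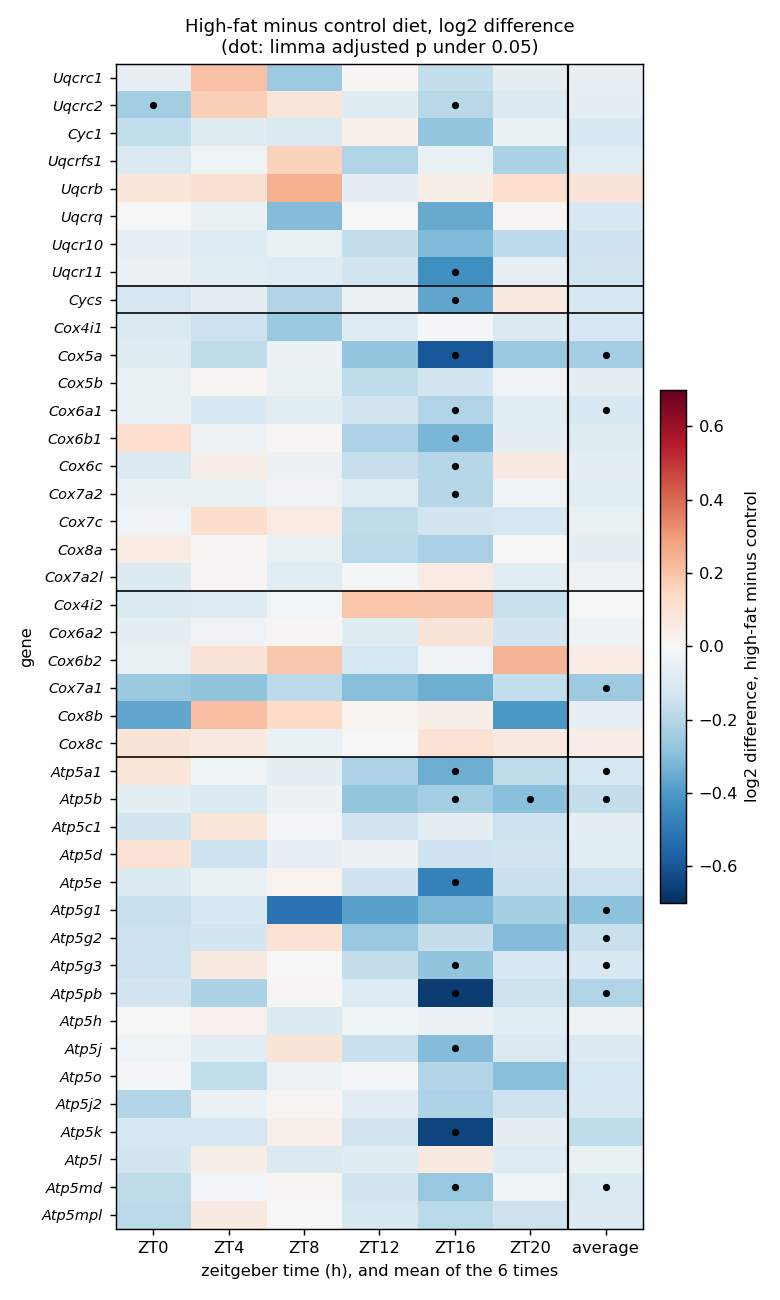
Log2 difference, high-fat minus control, of each of the 42 genes (rows, by complex: complex III, cytochrome c, common complex IV subunits with Cox7a2l, restricted isoforms, ATP synthase) at each zeitgeber time in hours and as the mean of the 6 times (columns). Dots mark limma adjusted p under 0.05. Blue, lower on the high-fat diet, fills most of the map, and 16 of the dots lie in the ZT16 column.

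ATP synthase held 7 of the 10 called genes, and all of its 17 members had an average difference below 0. Atp5b, the catalytic beta subunit of the F1 head, ran over 9.63, 10.07 and 10.45 (lowest, median and highest mouse) on the high-fat diet, against 9.85, 10.18 and 10.51 on the control diet. Its ranges overlapped over the whole day, but the high-fat mean was lower at all 6 times. The average difference was -0.17 ± 0.03 (adjusted p = 0.00046, limma, 23 high-fat and 24 control mice). Atp5a1, the alpha subunit that alternates with beta in the head, was lower, with -0.13 ± 0.03 (adjusted p = 0.0107), with 5 of 6 times below 0. The remaining F1 genes Atp5c1, Atp5d and Atp5e (gamma, delta and epsilon subunits) had differences of -0.07, -0.07 and -0.15 that did not pass.

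The 3 genes for subunit c, which encode the same mature protein and differ in their import sequences, were all lower. Atp5g1 ran over 7.80, 8.29 and 8.71 (lowest, median and highest) on the high-fat diet and 7.97, 8.53 and 9.17 on the control diet. It had the largest average fall of the members, -0.28 ± 0.07 (adjusted p = 0.0032), and was lower at all 6 times. Atp5g2 differed by -0.15 ± 0.04 (adjusted p = 0.00549) and Atp5g3 by -0.11 ± 0.03 (adjusted p = 0.0139), each lower at 5 of 6 times. Atp5g2 did not pass without the ZT20 mice (adjusted p = 0.0513).

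Of the 4 stalk genes, Atp5pb, the b subunit of the peripheral stalk, was called, with -0.21 ± 0.06 (adjusted p = 0.0153). Atp5h, Atp5j and Atp5o (subunit d, coupling factor F6 and OSCP) had differences of -0.03, -0.10 and -0.12, short of the threshold. Atp5md, a small membrane subunit known as DAPIT, was lower, with -0.10 ± 0.02 (adjusted p = 0.00267). The other small membrane genes Atp5j2, Atp5k, Atp5l and Atp5mpl lay between -0.18 and -0.05 and did not pass. The calls of Atp5pb, Atp5md, Atp5a1 and Atp5g3 were lost without the ZT16 mice (adjusted p up to 0.30 for Atp5pb). That of Atp5a1 was also lost without the ZT12 mice, and that of Atp5g3 also without the ZT0 or the ZT12 mice. Atp5b, Atp5g1, Cox5a, Cox6a1 and Cox7a1 passed under all 62 alternatives run.

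All 9 common complex IV subunits had average differences below 0, and Cox5a and Cox6a1 were called. Cox5a, a subunit on the matrix side, ran over 9.15, 9.67 and 10.19 on the high-fat diet, against 9.48, 9.92 and 10.21 on the control diet (lowest, median and highest mouse). The lowest and the middle of the high-fat mice thus lay under their control counterparts, while the highest mice were alike. Its difference was -0.24 ± 0.05 (adjusted p = 0.0006), below 0 at all 6 times. Cox6a1, the common isoform of subunit 6a, differed by -0.11 ± 0.02 (adjusted p = 0.00236), also below 0 at all 6 times. Cox7a2 and Cox4i1 came next with -0.07 ± 0.02 and -0.12 ± 0.04 (adjusted p = 0.0513 and 0.0613).

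No complex III gene passed on average, although 7 of its 8 members lay below 0. Uqcrb, the ubiquinone-binding protein by name, was the exception, with 0.09 ± 0.05 (adjusted p = 0.269). Differences of the others ran from -0.14 for Uqcr10 and Uqcr11, 2 small subunits, to -0.05 for the core protein gene Uqcrc1. Cyc1 (cytochrome c1) and Uqcrfs1 (the Rieske iron-sulfur protein), which carry electrons, differed by -0.11 ± 0.05 and -0.08 ± 0.05 (adjusted p = 0.145 and 0.305). Cycs, the mobile carrier between the complexes, differed by -0.12 ± 0.04 (adjusted p = 0.069).

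Promoters of the members were read from RefSeq (GRCm38.p6; 250 bases before to 50 after the gene start), which matched 32 of the 43 members. For 6 of them every start in the table lies inside the gene span, so the bases before that start can be transcribed. Motifs were searched on both strands. The NRF1 motif was a GC-rich stretch of 10 letters with 1 of them free. It was in 25% of the matched members, against 10.7% of tested genes with a promoter and 5.19% of all genes. The ETS motif CCGGAAG, bound by GABPA, was in 31.2% of members, against 19.1% and 9.93%, and the ERR motif AAGGTCA in 12.5%, against 3.94% and 5.38%. The YY1 motif AANATGGCG was in 9.38% of members (5.96% and 2.76%) and the E-box CACGTG in 12.5% (12.1% and 8.09%). The GC box GGGCGG, bound by Sp1, was in 40.6% of members, against 67.7% of tested and 38.2% of all genes. These factors are known regulators of respiratory chain genes or, for the E-box, the site of the clock factors. A match is a description of letters and not a binding site.

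The 120 bases upstream of 4 members are shown because these genes stand for the patterns described: Atp5b, Cox6a1 and Atp5md were lower on average, and Cox8b had a daily course of its own. Capitals mark matches to the motifs above, read 5′ to 3′ on the gene's strand. Positions are counted from the gene start of the promoter table, which for these 4 genes lies at the upstream end of the gene span. Atp5b (chr10:128083187-128083306, plus strand) holds a GC box on the opposite strand whose first base lies at -45. Cox6a1 (chr5:115348959-115349078, minus strand) holds NRF1, GC box and ETS matches at -117, -44 and -16, all 3 on the opposite strand. Atp5md (chr19:47090648-47090767, minus strand) holds a GC box at -80. None of the 6 motifs is in the stretch of Cox8b (chr7:140900447-140900566, minus strand).
Atp5b: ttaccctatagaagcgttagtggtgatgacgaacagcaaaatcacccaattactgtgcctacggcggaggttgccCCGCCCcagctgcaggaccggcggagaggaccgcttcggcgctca
Cox6a1: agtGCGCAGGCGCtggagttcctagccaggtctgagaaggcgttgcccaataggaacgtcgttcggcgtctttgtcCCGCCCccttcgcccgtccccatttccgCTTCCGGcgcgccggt
Atp5md: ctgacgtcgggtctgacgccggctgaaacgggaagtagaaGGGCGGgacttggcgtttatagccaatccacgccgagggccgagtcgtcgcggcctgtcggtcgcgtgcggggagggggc
Cox8b: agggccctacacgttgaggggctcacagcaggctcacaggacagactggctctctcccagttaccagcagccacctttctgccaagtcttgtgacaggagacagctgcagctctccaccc

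The difference between the diets was called most often at ZT16, by convention in the dark phase. There 16 of the 42 members were lower (38.1%), against 7.13% of all genes, and none was higher (6.13% of all genes). The median difference at ZT16 was -0.20 for the members and -0.02 for all genes. The called genes fell by between 0.19 and 0.67 on the log2 scale, to 0.875 to 0.63 of the control level. They comprised 8 ATP synthase genes (Atp5a1, Atp5b, Atp5e, Atp5g3, Atp5j, Atp5k, Atp5md and Atp5pb), 5 common complex IV subunits (Cox5a, Cox6a1, Cox6b1, Cox6c and Cox7a2), Uqcrc2 and Uqcr11 of complex III, and Cycs. Of these, 7 were also called on average. All high-fat mice lay below all control mice in 17 of the 42 members, beside 15.8% of all genes.

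Atp5pb showed the largest ZT16 difference. Its levels were 8.05, 8.15 and 8.20 in the high-fat mice, against 8.61, 9.09, 8.64 and 8.85 in the control mice. The groups did not overlap, and the difference was -0.67 ± 0.15 (adjusted p = 0.00279, limma). Cox5a had 9.37, 9.60 and 9.35 in the high-fat mice, against 9.97, 10.17, 9.96 and 10.02 in the control mice. Here too every high-fat mouse was lower, and the difference was -0.59 ± 0.12 (adjusted p = 0.000705). Atp5md had 10.39, 10.50 and 10.42 in the high-fat mice, against 10.69, 10.77, 10.68 and 10.67 in the control mice. The spread within each diet was small beside the gap of -0.27 ± 0.06 (adjusted p = 0.00211).

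Atp5a1 had 10.23, 10.35 and 10.26 in the high-fat mice, against 10.46, 10.63, 10.63 and 10.77 in the control mice. The highest high-fat mouse was below the lowest control mouse, and the difference was -0.34 ± 0.09 (adjusted p = 0.00681). Cycs had 9.43, 9.33 and 9.56 in the high-fat mice, against 9.65, 9.90, 9.70 and 9.99 in the control mice. It was likewise lower in all high-fat mice, with -0.37 ± 0.12 (adjusted p = 0.0313). Atp5k, a small membrane subunit, had 8.51, 8.68 and 8.64 in the high-fat mice, against 8.81, 9.42, 9.14 and 9.64 in the control mice. The control mice were more spread than the high-fat mice, and the difference was -0.64 ± 0.19 (adjusted p = 0.0206). Cyc1 was separated too, at 9.33 to 9.50 in the high-fat mice and 9.61 to 9.82 in the control mice, but did not pass the threshold.

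The count at ZT16 rests on few mice. It was 5 without high-fat replicate 1 and 6 without high-fat replicate 3, each leaving 2 high-fat mice. It was 7, 10 and 6 without control replicates 2, 3 and 4, and between 11 and 16 without any other mouse. The share of all genes called lower in those 5 repeats was 4.16%, 2.83%, 5.72%, 5.14% and 4.62%. Cox5a, Atp5md, Atp5pb and Atp5a1 passed under all 55 alternatives run for this contrast.

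Cell type markers also differed at ZT16. There the mean of 13 myofibre markers was 6.27 to 6.34 in the high-fat mice and 6.10 to 6.20 in the control mice, so the groups did not overlap. Of the 10 tested, 2 were higher at ZT16 and none lower, beside 6.13% and 7.13% of all genes. The mean of 8 satellite cell markers was 10.08 to 10.24 in the high-fat mice and 9.92 to 10.10 in the control mice, with 2 of 8 higher. The mean of 3 pericyte and smooth muscle markers ran from 9.45 to 10.18 in the high-fat mice and from 9.76 to 11.29 in the control mice, none called. The mean of 5 endothelial markers was 5.82 to 5.91 in the high-fat mice and 5.49 to 5.59 in the control mice, with none of the 2 tested called. The mean of 7 fibro-adipogenic markers was 8.06 to 8.23 in the high-fat mice and 7.77 to 8.04 in the control mice, with none of the 4 tested called. The groups did not overlap for either list. Of 3 Schwann cell markers 1, Mag, was higher at ZT16 (0.41), and of the 2 adipocyte markers tested 1, Lipe (0.66). The mean of the 3 Schwann cell markers was 7.35 to 7.58 in the high-fat mice and 7.18 to 7.49 in the control mice, and that of 3 adipocyte markers 5.96 to 6.00 in the high-fat mice and 5.74 to 5.97 in the control mice. The mean of 6 immune markers was 5.42 to 5.46 in the high-fat mice and 5.32 to 5.61 in the control mice, none called. Over the day, Pax7 (0.11 ± 0.03), Vcam1 (0.15 ± 0.05) and Calcr (0.27 ± 0.07) were higher on the high-fat diet, 3 of 8 satellite cell markers. Of the 10 myofibre markers tested, Pvalb alone was higher (0.20 ± 0.06), beside 4.70% of all genes, and none was lower. The median difference of these 10 was -0.01, and 6 of them lay below 0. The macrophage marker Cd68 was lower (-0.30 ± 0.09), 1 of 2 immune markers tested. The fibro-adipogenic genes Col3a1 and Dpt (0.11 ± 0.04 and 0.13 ± 0.04), the Schwann cell genes Mbp and Sox10 (0.36 ± 0.09 and 0.17 ± 0.05) and the adipocyte gene Lipe (0.18 ± 0.04) were higher as well. Their part in the results on the respiratory genes was not tested.

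**Figure D2:**
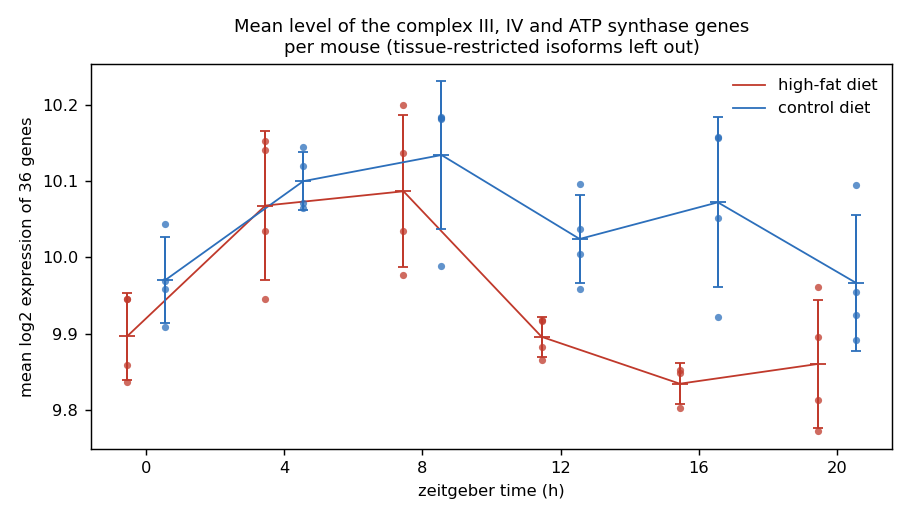
Mean log2 expression of the 36 tested members without the restricted isoforms (vertical axis) at each zeitgeber time in hours (horizontal axis), 1 point per mouse, with group mean and SD; high-fat mice are drawn left of control mice. At ZT16 the high-fat mice lie between 9.80 and 9.85 and the control mice between 9.92 and 10.16; at ZT4 and ZT8 the diets overlap.

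The mean of the 36 members other than restricted isoforms summarises each mouse. At ZT16 it was 9.80, 9.85 and 9.85 in the high-fat mice, against 9.92, 10.16, 10.05 and 10.16 in the control mice. At ZT12 it was 9.92, 9.87, 9.88 and 9.92 in the high-fat mice, against 10.04, 10.00, 9.96 and 10.10 in the control mice. No high-fat mouse reached a control mouse at either time. At ZT4 the group means were 10.07 ± 0.10 on the high-fat diet and 10.10 ± 0.04 on the control diet (SD, n = 4 each), with overlapping mice. At ZT8 they were 10.09 ± 0.10 on the high-fat diet and 10.13 ± 0.10 on the control diet (SD, n = 4 each).

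At the other times few or no members were called. At ZT0, Uqcrc2 was lower (1 member, beside 2.23% of all genes). At ZT20, Atp5b was lower (1 member, beside 0.517%), with 9.63, 9.69, 9.67 and 9.83 in the high-fat mice, against 10.07, 9.85, 9.96 and 10.11 in the control mice. These groups did not overlap, and the difference was -0.29 ± 0.08 (adjusted p = 0.0482). It passed in 23 of 55 alternatives. No member was called lower at ZT4, ZT8 or ZT12 (0.107%, 1.02% and 0.390% of all genes), and the unadjusted p was under 0.05 for 1, 4 and 12 members (2.38%, 9.52% and 28.6%, beside 12.3%, 17.3% and 14.4% of all genes). No member was called higher at ZT0, ZT4, ZT8, ZT12 or ZT20 either (1.33%, 0.205%, 0.760%, 0.468% and 0.302% of all genes).

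Next in rank, short of the threshold, came the following members. At ZT0 these were Atp5md with -0.18 ± 0.06 (adjusted p = 0.0625), Atp5mpl with -0.19 ± 0.08 and Atp5l with -0.14 ± 0.06. The 4 smallest p at ZT4 belonged to Uqcrc2 with 0.17 ± 0.06, Cox6a1 with -0.11 ± 0.06, Cox7a1 with -0.28 ± 0.16 and Uqcrc1 with 0.21 ± 0.12, and adjusted p was 0.181 or more. At ZT8 Atp5g1 differed by -0.52 ± 0.16 (adjusted p = 0.0706), and it passed without control ZT8 replicate 2 (adjusted p = 0.00817 to 0.208 over the alternatives). Cox4i1 and Uqcrc1 followed with -0.26 ± 0.10 and -0.26 ± 0.12, and Uqcrb with 0.25 ± 0.12. All high-fat mice were above all control mice at ZT8 for Uqcrb (3.96% of all genes).

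At ZT12 the smallest p belonged to Atp5b with -0.27 ± 0.08 (adjusted p = 0.0745), Atp5g2 with -0.27 ± 0.09, Cox5b with -0.18 ± 0.07 and Cox6b1 with -0.21 ± 0.08. At ZT20 Atp5b was followed by Atp5g2 with -0.31 ± 0.09, Atp5o with -0.30 ± 0.11 and Cox5a with -0.26 ± 0.11. All high-fat mice lay below all control mice in 6 members at ZT12 and in 6 at ZT20, beside 3.28% and 4.04% of all genes. At ZT0 this held for 2 members (6.16% of all genes), and at ZT4 and ZT8 for none (2.28% and 5.87%). Over the 6 times, 10 members were lower at every time (3.72% of all genes), 17 at 5 times (13.98%) and 11 at 4 times (23.64%). The lowest difference of the day fell at ZT16 for 21 of the 42 members, against 24.3% of all genes.

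Whether the diet difference itself changed over the day was tested by the interaction, which 2 of 42 members passed (4.76%, beside 12.4% of all genes). The smallest p was that of Uqcrc2, a core protein of complex III. At ZT0 its levels were 10.31, 10.64, 10.54 and 10.55 in the high-fat mice, against 10.77, 10.82, 10.74 and 10.69 in the control mice. At ZT4 they were 10.78, 10.75, 10.65 and 10.67 in the high-fat mice, against 10.47, 10.42, 10.63 and 10.65 in the control mice. Every high-fat mouse was below the control mice at ZT0, while at ZT4 the order was turned, apart from an overlap at 10.65. At ZT16 they were 10.47, 10.59 and 10.44 in the high-fat mice, against 10.62, 10.66, 10.75 and 10.75 in the control mice, again without overlap. At ZT20 the high-fat mice (10.62 to 10.72) lay just under the control mice (10.72 to 10.84), a separation seen in 4.04% of all genes. That difference was not called.

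The differences of Uqcrc2 were -0.24 ± 0.06 at ZT0 (adjusted p = 0.0122), 0.17 ± 0.06 at ZT4 (adjusted p = 0.181) and -0.19 ± 0.06 at ZT16 (adjusted p = 0.0307). The interaction had an adjusted p of 0.00315, and of 0.00101 to 0.00794 over 55 alternatives. The ZT0 call was lost without high-fat ZT0 replicate 1, the mouse at 10.31 (adjusted p up to 0.0826). Uqcrc2 was also the member whose 24 h course differed between the diets (1 of 42, or 2.38%, beside 2.11% of all genes; adjusted p = 0.0427). That difference passed in 29 of 56 alternatives.

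Cox6b1, the common isoform of a subunit facing the intermembrane space, was at the threshold of the interaction (adjusted p = 0.0499). It passed in 16 of 55 alternatives. At ZT0 it had 10.47, 10.57, 10.43 and 10.35 in the high-fat mice, against 10.34, 10.20, 10.40 and 10.40 in the control mice, which overlap. At ZT16 it had 10.26, 10.30 and 10.39 in the high-fat mice, against 10.49, 10.83, 10.66 and 10.59 in the control mice, with no overlap. The difference was 0.12 ± 0.08 at ZT0 (adjusted p = 0.442) and -0.32 ± 0.08 at ZT16 (adjusted p = 0.00891). Atp5md, Atp5a1 and Cox6c had the next smallest p of the interaction (adjusted p = 0.0546, 0.0765 and 0.107).

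**Figure D3:**
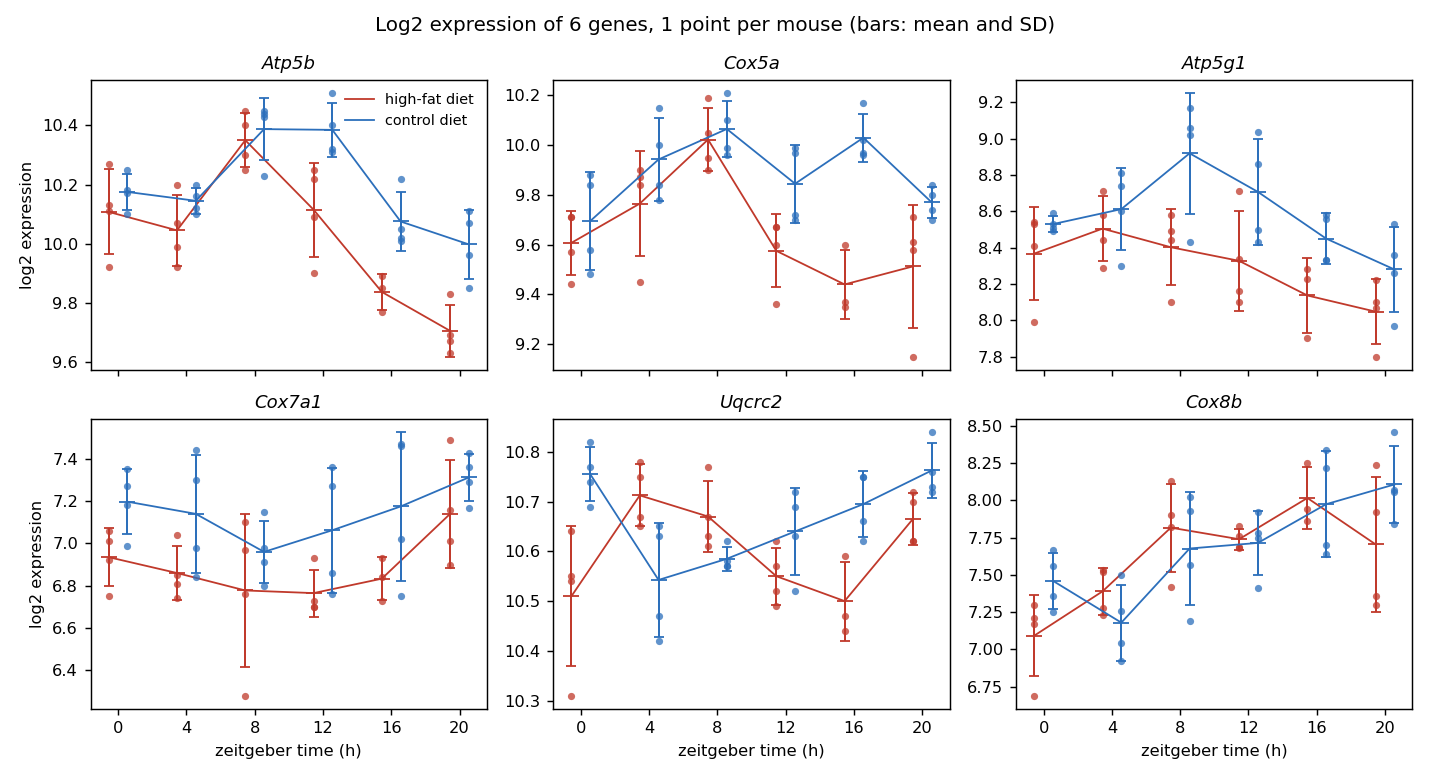
Log2 expression (vertical axes, a scale per gene) of Atp5b, Cox5a, Atp5g1, Cox7a1, Uqcrc2 and Cox8b at each zeitgeber time in hours, 1 point per mouse, with group mean and SD; high-fat mice are left of control mice. Atp5b and Cox5a part from the control mice at ZT12 and ZT16, and Atp5b also at ZT20. Uqcrc2 lies below the control mice at ZT0 and ZT16, and narrowly at ZT20.

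A 24 h cosine was fitted within each diet, whose amplitude is measured from its mean level up to its peak. On the high-fat diet 18 of 42 members were rhythmic (42.9%, beside 16.9% of all genes), and on the control diet 7 (16.7%, beside 10.5%). Of these, 5 passed on both diets. With collection day as a random block, 6 members passed on the high-fat diet and 2 on the control diet. The counts also fell when the mice of some times were left out. On the high-fat diet 11 passed without the ZT8 mice and 9 without the ZT16 mice. On the control diet 3 passed without the ZT8 mice and 2 without the ZT20 mice. Shares of all genes under the day block and in these repeats are not given. The falls therefore cannot be called particular to the members. The fitted amplitude was larger on the high-fat diet in 28 of 42 members (66.7%, beside 56.0% of all genes). The difference in rhythm passed for Uqcrc2 alone, with an unadjusted p under 0.05 in 9 members (21.4%, beside 18.9%).

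On the high-fat diet 17 of the 18 rhythmic members peaked between 3.73 and 8.74 h, in the light phase, with amplitudes of 0.11 to 0.33. Atp5pb had 0.33 ± 0.07 with a peak at 4.45 h, and Atp5e 0.32 ± 0.07 with a peak at 5.58 h. Uqcr10 had 0.27 ± 0.06 (5.85 h), Atp5b 0.26 ± 0.04 (7.13 h) and Cox5a 0.24 ± 0.05 (6.32 h). Adjusted p of these 5 lay between 5.01e-05 and 0.00942. Uqcr10 lost its call with the mean of all probe sets, under the day block and without the ZT4 or the ZT8 mice. Cox5a lost it without the ZT8 mice and Atp5pb without the ZT16 mice, whereas Atp5b and Atp5e passed under all 62 alternatives. The observed mean was highest at ZT4 or ZT8 in 17 and 15 members (21.3% and 14.6% of all genes) and lowest at ZT16 in 16 (26.6%). On the control diet Atp5g1 had 0.27 ± 0.06 (8.05 h), Uqcrc1 0.22 ± 0.05 (9.41 h), Atp5b 0.18 ± 0.04 (8.82 h), Cox6a1 0.12 ± 0.02 (9.62 h) and Cox7a2 0.11 ± 0.02 (6.60 h). Their adjusted p lay between 0.00184 and 0.0198. Every one of them lost its call without the ZT20 mice, and Atp5g1, Uqcrc1 and Cox7a2 also under the day block. Without the ZT8 mice Atp5g1, Uqcrc1 and Atp5b were not called. Uqcrc1 also lost its call without control ZT20 replicate 3 or control ZT8 replicate 2 or 3. Uqcrc2 peaked at 19.6 h with 0.10 ± 0.03 (adjusted p = 0.028). The observed mean on the control diet was lowest at ZT0 in 20 members (17.6% of all genes).

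The Atp5b course shows both features. On the high-fat diet its mice stood at 10.40, 10.45, 10.30 and 10.25 at ZT8, the highest group, and at 9.63 to 9.83 at ZT20, the lowest. On the control diet they stood at 10.44, 10.23, 10.43 and 10.45 at ZT8, at 10.40, 10.32, 10.31 and 10.51 at ZT12, and at 9.85 to 10.11 at ZT20. The diets overlapped at ZT8 and parted at ZT12, where the high-fat mice had 10.22, 10.25, 9.90 and 10.09.

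**Figure D4:**
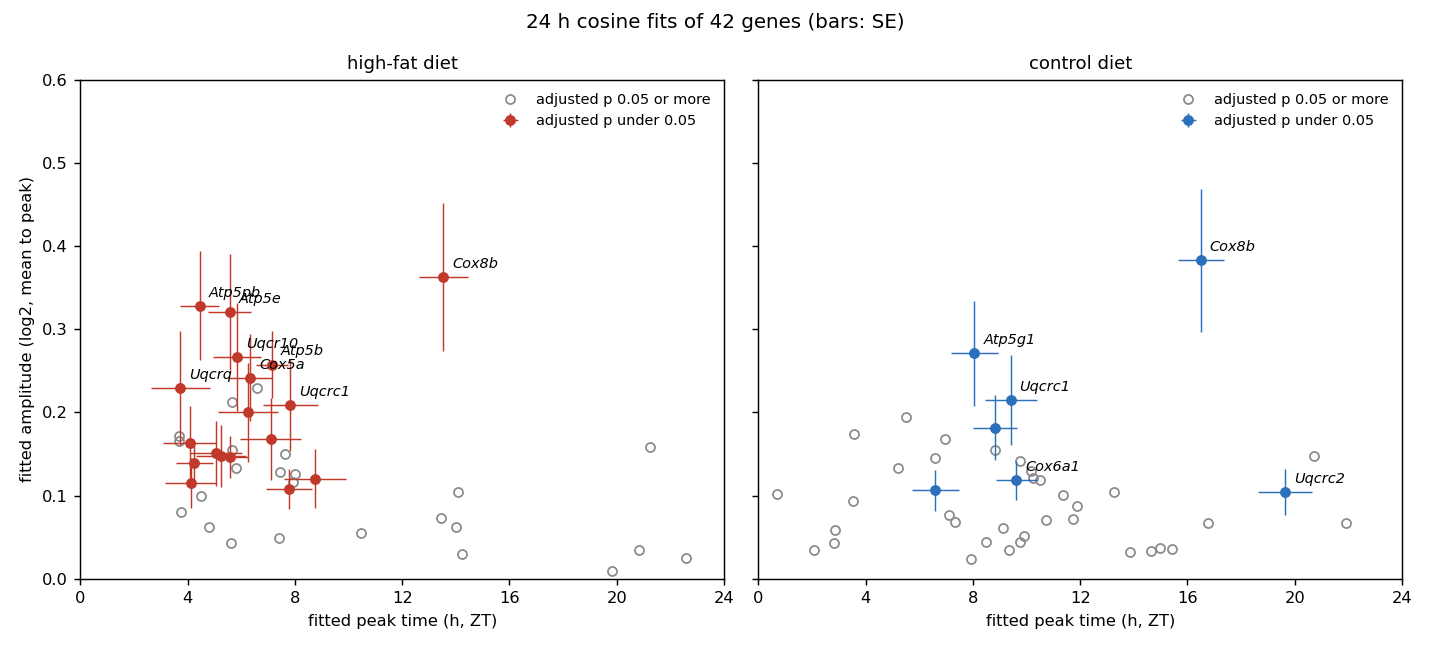
Fitted amplitude on the log2 scale (vertical axis) against fitted peak time in hours (horizontal axis) of the 24 h cosine for 42 genes, high-fat diet on the left and control diet on the right. Filled points passed at adjusted p under 0.05 (bars: SE), open points did not; 17 of the 18 filled points on the high-fat diet lie between 3.73 and 8.74 h, and Cox8b peaks later on both diets.

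The 6 tested tissue-restricted isoforms of complex IV had the lowest correlations with the mean of the other tested members over the 12 group means, between -0.36 (Cox8c) and 0.10 (Cox7a1). The next above them were Cox7a2l with 0.14, Uqcrb with 0.20 and Atp5d with 0.21, so there was no gap. Cox5a, at the other end, had 0.95. These are descriptions over groups that share arrays and days. The 6 isoforms were also the dimmest tested members, with means from 5.91 (Cox6b2) to 7.65 (Cox8b). Uqcrfs1, the next dimmest, had 7.95. The part of low signal in these correlations was not tested. Cox7a1, the heart and skeletal muscle isoform of subunit 7a, was called on average. It ran over 6.28, 6.90 and 7.49 on the high-fat diet, against 6.75, 7.17 and 7.47 on the control diet (lowest, median and highest), and was lower at all 6 times. The difference was -0.26 ± 0.07 (adjusted p = 0.00776), with the groups overlapping at every single time.

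Cox8b, the muscle isoform of subunit 8 in mice, had the largest amplitude of any member on either diet. At ZT0 its mice had 7.21, 7.17, 6.69 and 7.30 on the high-fat diet, and at ZT16 7.86, 8.25 and 7.94. On the control diet they had 6.92, 7.04, 7.26 and 7.50 at ZT4, and 8.46, 8.06, 7.84 and 8.07 at ZT20. Those groups did not overlap, but they were picked as the lowest and the highest of each diet, which makes separation likely. On the high-fat diet its amplitude was 0.36 ± 0.09 and its fitted peak 13.5 h (adjusted p = 0.01), and on the control diet 0.38 ± 0.09 and 16.5 h (adjusted p = 0.00683). Both calls were lost with day as a random block. Its average diet difference was -0.06 ± 0.08 (adjusted p = 0.694).

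Cox6a2, the striated muscle isoform of subunit 6a, was separated in opposite directions at neighbouring times. At ZT16 it had 7.38, 7.33 and 7.35 in the high-fat mice, against 7.22, 7.28, 7.24 and 7.31 in the control mice, so that all high-fat mice were above (13.3% of all genes). At ZT20 the high-fat mean was 7.28 ± 0.05 and the control mean 7.42 ± 0.03 (SD, n = 4 each), again without overlap. Neither difference passed (0.09 ± 0.08 and -0.13 ± 0.07; adjusted p = 0.47 and 0.405). Cox4i2, Cox6b2 and Cox8c, isoforms known from lung (Cox4i2) and testis (Cox6b2 and Cox8c), had average differences of 0.00 ± 0.05, 0.05 ± 0.08 and 0.05 ± 0.03, none called. The common partners Cox4i1, Cox6a1, Cox6b1, Cox7a2 and Cox8a differed by -0.12, -0.11, -0.08, -0.07 and -0.07 on average.

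Related genes of the respiratory chain were read from lists. Beside the counts of these lists, 6.80% of all genes were called lower on average and 7.13% at ZT16. Of 35 complex I subunits, 13 were lower and none higher on average, with a median of -0.11, and 10 were lower at ZT16. Ndufa9, a subunit of its matrix arm, differed by -0.28 ± 0.05 (adjusted p = 0.000226). None of the 4 complex II subunits passed, nor any of 4 complex III assembly factors. Of 14 complex IV assembly factors, 3 were lower: Cox18 with -0.24 ± 0.06, Cox19 with -0.19 ± 0.06 and Surf1 with -0.15 ± 0.05 (adjusted p = 0.00855, 0.0204 and 0.0444). Fmc1, an assembly factor of the F1 head, was lower, with -0.27 ± 0.06 (adjusted p = 0.00155), 1 of 3 on its list.

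Among 12 regulators of mitochondrial biogenesis, Tfb2m, a transcription factor of mitochondrial DNA, was lower, with -0.25 ± 0.06 (adjusted p = 0.00826), averaged over the day, and the other 11 were not called on average. At ZT16, 3 of the 12 were lower and none higher, beside 7.13% and 6.13% of all genes. Gabpa, the ETS factor named above, differed by 0.12 ± 0.05 on average (adjusted p = 0.147). Of 7 carriers and channels, Slc25a5, an adenine nucleotide translocase, was lower, with -0.17 ± 0.03 (adjusted p = 9.21e-05), and Vdac2, an outer membrane channel, with -0.16 ± 0.05 (adjusted p = 0.0269).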

How the data were processed

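Per the submitters' processing notes, the deposited log2 values per probe set were made by the authors with robust multi-array averaging (RMA). Those notes state neither settings nor version. Such values share one overall distribution, so each difference is against the bulk of genes, and precision is limited by the number of arrays. Per the labels, 25 ng of RNA was amplified over 17 cycles.

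Of 45141 probe sets, 28898 carried 1 gene symbol, 551 several and 15692 none in a dated platform annotation. Only the first were named, with symbols updated through the gene identifier for 28689. The brightest probe set stood for each of 17097 genes, and genes under the 40th percentile of the mean were left out, leaving 10258. The members have 70 probe sets. Of the 27 not used, 23 passed the filter, and 1, of Uqcrq, had an average diet difference of the opposite sign (0.13 against -0.11). Some probe sets can also match related transcripts or processed pseudogenes, which are common in these families.

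Models were fitted with limma 3.58.1 in R 4.3.3 (lmFit, eBayes with intensity trend) on all 47 arrays, two-sided, with 12 group means for the diet contrasts and the interaction F test. Rhythms used a cosine and sine of 24 h per diet, and the rhythm difference a 6-level time factor in addition. They were checked on simulated data. Promoters and figures were handled in Python 3.11.15. Mice sharing a replicate number were not paired: over 23 pairs the median correlation of their deviations was -0.01, with 1 over 0.1. Replicates are labelled biological replicates.

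The genes named in full are the 10 members with the smallest p on average, 4 at each time, 5 for interaction and rhythm difference, the 6 largest amplitudes of each rhythm and the restricted isoforms with their partners. Others shown, such as Cycs, Atp5k and Cox6a2 at single times, were chosen after their values were seen. The members, the lists and the tests were chosen with earlier results of these data known. Alternatives were other normalization, filters, probe set rules, variance models, weights and blocks, and left-out mice and times.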

Additional observations from a re-analysis of the deposited data

Results flagged for a closer look

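Of 154 groups of 4 mice examined for 13 genes and the mean of the 36 members, 5 held 1 mouse far from the other 3, the gap to its nearest neighbour, as a share of the range, being above Dixon's critical value. Chance gives about 1 in 20. Cox5a was at 9.45 in high-fat ZT4 replicate 1, with the others between 9.84 and 9.90. Cox7a1 was at 6.93 in high-fat ZT12 replicate 3, with the others between 6.70 and 6.73. Control ZT8 replicate 2 stood apart in 3 measures: 10.28 for Atp5a1 (others 10.52 to 10.55), 10.23 for Atp5b (10.43 to 10.45) and 9.99 for the mean of the 36 members (10.18). Without that mouse, Atp5g1 was called lower at ZT8, against no member with it.

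The diet effect differed over the 6 times for Uqcrc2 (adjusted p of the interaction 0.00315, limma) and Cox6b1 (0.0499), and the daily course of Uqcrc2 differed between the diets (adjusted p = 0.0427).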

How the results depend on the processing

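The number of members lower on average was 10, and 16 with the mean of all probe sets of a gene, 16 without the ZT4 mice, and 10 to 17 with 1 mouse left out. At ZT16 it was 16, and 5 to 16 with 1 mouse left out. At ZT0 it was 1 (0 to 2 with 1 mouse left out). At ZT8 it was 0, 2 with array weights, and 0 to 1 with 1 mouse left out. At ZT12 it was 0, 1 with cyclic loess or array weights, and 0 to 1 with 1 mouse left out. At ZT20 it was 1, and 0 with no filter, with no intensity trend and without each of 29 of the 47 mice (0 to 1). The interaction had 2, with 1 under no filter, no trend or robust eBayes, 6 with array weights, and 1 to 3 with 1 mouse left out (1 without each of 30 mice). Rhythm on the high-fat diet had 18, with 6 under day as a random block, 11 without the ZT8 mice, 9 without the ZT16 mice, and 14 to 21 with 1 mouse left out. Rhythm on the control diet had 7, with 2 under the day block, 3 without the ZT8 mice, 2 without the ZT20 mice, and 5 to 9 with 1 mouse left out. The rhythm difference had 1, with 0 under cyclic loess, no filter, the mean of probe sets, no trend or no time factor, 3 with array weights, and 0 to 2 with 1 mouse left out (0 without each of 20 mice). The E-box was in 4 member promoters, and in 2 in the window of 150 bases before the start. Where fewer mice or more genes do not account for a change by construction, the cause was not tested. For most of these settings the share of all genes called is not given. Those changes cannot be called particular to the members.

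With the replicate block, members called were 10 on average, 11 at ZT16, 0 at ZT20, 1 for the interaction, 14 and 7 for the rhythms on the high-fat and control diets, and 0 for the rhythm difference. It moved no other count. The share of all genes called under this block is not given either. The numbers do not pair the mice.

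Of 3239 values of 56 results on single genes under the alternatives, 3082 kept their side of the threshold, 132 lost the call and 25 gained it. No diet difference changed direction, and direction was not checked for the interaction and the rhythms. The genes were those with the smallest p or the largest amplitude, which makes a change of direction less likely. A fall of the size seen here, near -0.10, is small for 4 mice a group at 1 time, and differences of dim probe sets are compressed toward background.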

Other observations

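Atpif1, the inhibitor of ATP synthase hydrolysis, is not among the members by its platform symbol, and its values were looked at after the others. At ZT16 it had 10.27, 10.41 and 10.46 in the high-fat mice, against 10.58, 10.76, 10.68 and 10.82 in the control mice, with no overlap. Group means of the tested genes outside the members were compared with the mean of all tested members, restricted isoforms included. The most alike were those of Nme2 (r = 0.95), Pabpc4 (0.95) and Mrpl23 (0.94). These correlations run over 12 group means, share arrays and days, and are given as a description with no test.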
